A study of Mus musculus with 8 samples.

Results

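The 10 genes described here mark early stages of the oligodendrocyte lineage: Pdgfra, Cspg4, C1ql1 and Ptprz1 on precursor cells, Gpr17, Neu4, Bcas1 and Enpp6 in cells committed to become oligodendrocytes, and Olig1 and Olig2, transcription factors of the whole lineage. They were taken by gene symbol from a table of 13996 genes measured in mouse brain cortex. All 10 had a row, and all 10 were among the 13982 genes tested (mean FPKM of at least 1 and no 0 in any mouse).

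The study compared the cortex of normal mice, which ate a conventional diet, with that of high fat diet fed (HFD) mice, whose diet held 60% fat by weight. There were 4 male C57BL/6 mice per diet, obtained at the age of 8 weeks, fed for 8 weeks and killed at 16 weeks under ether anesthesia. Each mouse gave 1 library of rRNA-depleted total RNA from brain cortex, and the extent of the dissection was not stated. The values are FPKM, fragment counts scaled by transcript length and by the size of the library, so that levels can be compared between genes. The labels give the mice as separate samples of a diet but say nothing of cages or litters, and the p-values measure the spread between these mice.

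Oligodendrocytes wrap axons in myelin and arise throughout life from precursor cells that divide in the grey and white matter. A precursor senses PDGF through its receptor Pdgfra and carries the proteoglycan Cspg4, also called NG2, on its surface. When it commits to differentiate it loses these proteins, passes through a short stage that is known for Gpr17, Bcas1 and Enpp6, and then turns on the genes of myelin. Olig2 is needed for the lineage to form, and Olig1 takes part in its maturation.

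Differences were tested on log2(FPKM + 0.1) with limma, two-sided, with Benjamini-Hochberg adjustment over the 13982 genes, and a gene was called at an adjusted p below 0.05. Log2 fold changes are HFD over normal, and values per mouse are listed from mouse 1 to mouse 4 of each diet. RNA of whole tissue was measured, so fewer cells of a type and less RNA per cell cannot be told apart.

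The libraries differed in more than these genes. The summed FPKM of 20 mature oligodendrocyte markers was 2594 to 4263 in normal mice and 1825.5 to 2463.9 in HFD mice, and summed striatal markers were 208.9 to 383.2 against 59.9 to 69.8. Cerebellar markers summed to 60.8, 341.1, 449 and 124.4 in the normal mice and to 41.6 to 49.3 in the HFD mice. By this sum every normal mouse was above every HFD mouse, and normal mice 2 and 3 stood apart. In normal mouse 1 Calb1 made up 33.6 of the 60.8. In that mouse Cbln1 (5.0) and Zic2 (2.3) were below every HFD mouse, and Neurod1 (5.4) was within the HFD range. Cbln3, Gabra6, Fat2, Zic1, Calb1 and Car8 were above every HFD mouse there. Markers of cortical projection neurons were at 277.2 to 424.1 in normal mice and at 469.7 to 554.6 in HFD mice. The part of the neighbouring brain regions in the results was not tested beyond the values given with each of them.

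Among the 10 genes, 5 changed with diet and the changes ran both ways. Gpr17, Bcas1 and Enpp6 of the committed stage were lower in HFD mice, Cspg4 and Olig2 were higher, and Pdgfra, Ptprz1, C1ql1, Neu4 and Olig1 did not pass the test. Of all genes tested 33.1% were called, 17.7% higher and 15.3% lower, and the 2 higher and 3 lower genes here are to be read against those shares. The median log2 fold change of the 10 genes was -0.14, and that of all genes was 0.00. The diets did not overlap for 4 of the 10 genes (Cspg4, Gpr17, Bcas1 and Enpp6), against 31.9% of all genes. With a difference of more than 1.5-fold in either direction also required, Gpr17, Bcas1 and Enpp6 remained called, against 7.13% of all genes. With normal mice 2 and 3 left out together, 2 genes were higher (Cspg4 and Olig2) and 2 lower (Gpr17 and Bcas1). In that fit 2736 of 13904 genes were called in either direction.

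**Figure D1:**
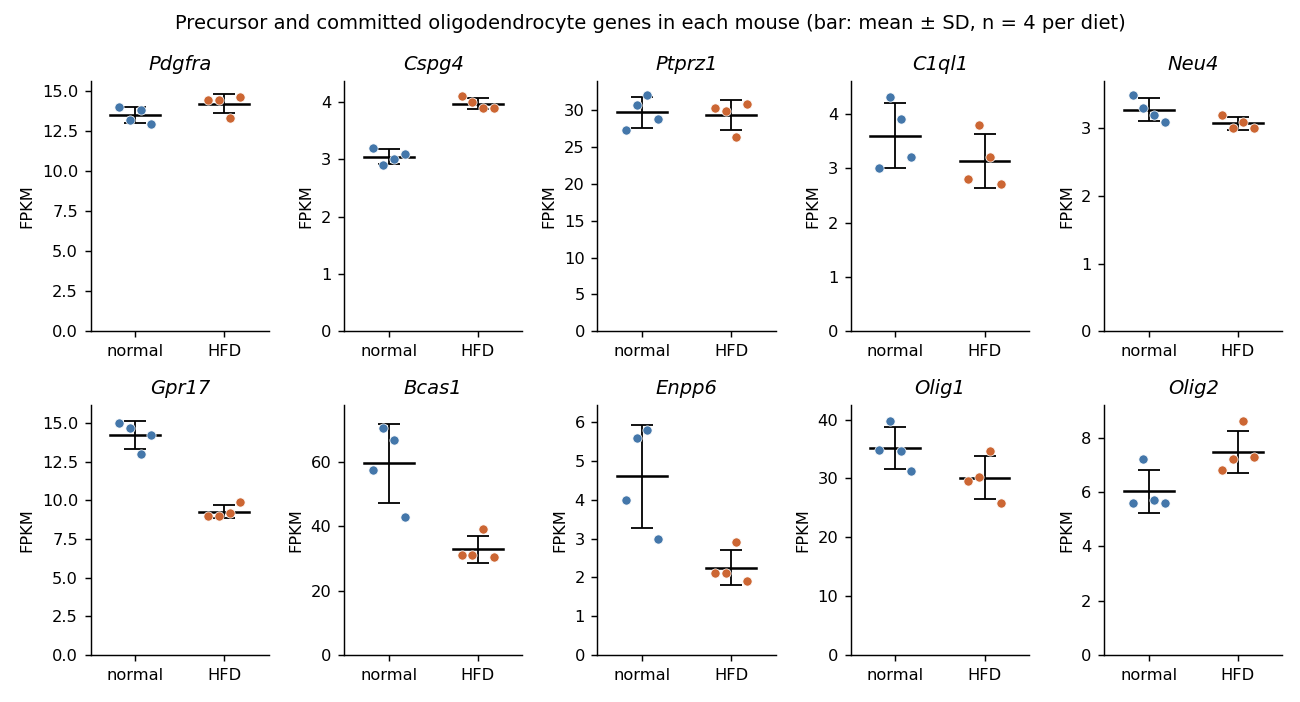
FPKM of each of the 10 genes in the 8 mice, with 1 panel per gene, points for single mice and bars for the mean and SD of the 4 mice of a diet. Every HFD mouse lies below every normal mouse for Gpr17, Bcas1 and Enpp6 and above every normal mouse for Cspg4.

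The precursor genes come first. The sequences just before the transcription start are shown for Pdgfra and Cspg4, precursor genes of which only Cspg4 was called. They are also shown for Enpp6, the gene of the committed stage that fell furthest. The sequences are from RefSeq on GRCm38.p6, which held a window of 250 bases before to 50 after the start for 6 of the 10 genes, and they end before the first start annotated in either RefSeq or GENCODE. Capitals mark matches to 4 hexamers searched on both strands: CAGATG and CAGCTG, which are E-boxes of the kind bound by Olig and related proteins, and ACAAAG and ACAATG, which are SOX-type motifs.
Pdgfra (chr5:75152001-75152250, + strand): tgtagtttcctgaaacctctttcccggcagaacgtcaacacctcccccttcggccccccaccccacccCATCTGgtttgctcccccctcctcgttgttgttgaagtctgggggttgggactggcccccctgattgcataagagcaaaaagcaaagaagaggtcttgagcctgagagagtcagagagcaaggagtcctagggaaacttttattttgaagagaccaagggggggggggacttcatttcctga
Cspg4 (chr9:56864854-56865032, + strand): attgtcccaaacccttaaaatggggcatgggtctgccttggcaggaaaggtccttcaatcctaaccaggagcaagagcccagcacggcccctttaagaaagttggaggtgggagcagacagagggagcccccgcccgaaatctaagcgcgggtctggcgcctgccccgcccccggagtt
Enpp6 (chr8:46986637-46986886, + strand): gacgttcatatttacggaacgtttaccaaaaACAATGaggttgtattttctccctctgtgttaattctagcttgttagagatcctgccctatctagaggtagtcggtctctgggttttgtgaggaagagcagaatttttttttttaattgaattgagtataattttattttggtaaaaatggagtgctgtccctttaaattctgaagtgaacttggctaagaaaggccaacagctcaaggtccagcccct
The Pdgfra sequence held CATCTG, the reverse complement of CAGATG, and the Enpp6 sequence held ACAATG, while the Cspg4 sequence held none of the 4 hexamers. Over the full windows of 300 bases, CAGATG was found in 1 of the 6 genes and in 17.2% of 32851 promoters, and ACAATG in 2 of 6 (Enpp6 and Olig2) and in 12.6%. CAGCTG, which is its own reverse complement, and ACAAAG were in 0 of 6 windows and in 16.3% and 18.7% of all promoters. A match of letters is a description of the sequence and says nothing of binding.

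Pdgfra (ENSMUSG00000029231.15, chr5:75152292-75198215, + strand) encodes the PDGF receptor that keeps precursors dividing. Its FPKM was 14.0, 13.2, 13.8 and 12.9 in normal mice and 14.4, 14.4, 13.3 and 14.6 in HFD mice. The diets overlapped, and HFD mouse 3 lay below 2 normal mice. The change was 0.07 on the log2 scale (SE 0.05, 95% interval -0.04 to 0.19, adjusted p = 0.305 in limma). Meningeal fibroblasts also make Pdgfra. The summed level of 8 of their markers was 39.5 to 51.1 FPKM in normal and 33.8 to 52.4 in HFD mice. Of the 8, 4 were called lower, against 15.3% of all genes. With the cerebellar covariate 0 of the 8 were called. Without normal mice 2 and 3 together, 7 were tested, of which 2 were lower and 1 higher.

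Cspg4 (ENSMUSG00000032911.6, chr9:56865033-56899870, + strand), the NG2 proteoglycan, is carried by precursors and also by pericytes. It was at 3.2, 2.9, 3.0 and 3.1 FPKM in normal mice and at 4.1, 4.0, 3.9 and 3.9 in HFD mice. Every HFD mouse was above every normal mouse, with little spread within a diet. The mean was 3.05 ± 0.129 in normal mice and 3.98 ± 0.0957 in HFD mice (SD, n = 4 each). This was 1.30-fold higher (log2 fold change 0.37, SE 0.07, adjusted p = 0.00493 in limma), and with the cerebellar marker level as a covariate the log2 fold change was 0.28 (adjusted p = 0.174). Without normal mice 2 and 3 it was 0.33 (adjusted p = 0.037 in limma).

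As Cspg4 is also a pericyte gene, the markers of pericytes stand beside it. Their summed level was 78.8 to 88.8 FPKM in normal mice and 73.2 to 76.3 in HFD mice, and of 7 pericyte markers tested 1 fell (Rgs5, log2 fold change -0.27, adjusted p = 0.0243 in limma). With the cerebellar covariate 0 of the 7 were called, and their median log2 fold change was -0.23, against -0.15 without it. Without normal mice 2 and 3 together 1 of the 7 fell. The part of pericytes in the Cspg4 difference was not tested.

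Ptprz1 (ENSMUSG00000068748.7, chr6:22875502-23052916, + strand) is a receptor tyrosine phosphatase of precursors and astrocytes. In normal mice it was at 27.3, 30.8, 32.1 and 28.9 FPKM, and in HFD mice at 30.3, 29.9, 26.4 and 30.9. The HFD mice held the lowest value but otherwise lay inside the normal range. Its log2 fold change was -0.02 (95% interval -0.17 to 0.13, adjusted p = 0.844 in limma). Of 12 astrocyte markers 3 rose, among them Gjb6 (0.28), and 4 fell, among them Aqp4 (-0.88) and Slc4a4 (-0.56). With the cerebellar covariate 1 of the 12 rose and 0 fell, and without normal mice 2 and 3 together 2 rose and 2 fell. The summed level of the 12 markers was 1323 to 1513.2 FPKM in normal and 1313.9 to 1393.4 in HFD mice, so a sum that overlapped held markers that moved both ways.

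C1ql1 (ENSMUSG00000045532.5, chr11:102939264-102946688, - strand) encodes a secreted protein of the C1q-like family that precursors make. Normal mice had 3.0, 4.3, 3.9 and 3.2 FPKM, and HFD mice had 2.8, 3.8, 3.2 and 2.7. Mice 2 and 3 were the higher ones in each diet, and the diets overlapped. The log2 fold change of -0.20 came with an interval of -0.52 to 0.13 (adjusted p = 0.317 in limma), so a fall of the size seen in Bcas1 lay outside it.

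Of the committed genes, Neu4 (ENSMUSG00000034000.15, chr1:94020451-94028334, + strand), a sialidase, moved least. It was at 3.5, 3.3, 3.2 and 3.1 FPKM in normal mice and at 3.2, 3.0, 3.1 and 3.0 in HFD mice. The upper HFD values met the lower normal ones. Its change was -0.09 on the log2 scale (95% interval -0.26 to 0.09, adjusted p = 0.41 in limma).

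Gpr17 (ENSMUSG00000052229.5, chr18:31942997-31949636, - strand), a G protein-coupled receptor that appears as precursors commit and is lost before they myelinate, fell with the smallest spread among the genes that fell. It was at 15.0, 14.7, 13.0 and 14.2 FPKM in normal mice and at 9.0, 9.0, 9.2 and 9.9 in HFD mice. Even the highest HFD mouse was well below the lowest normal mouse. The mean went from 14.2 ± 0.881 to 9.28 ± 0.427 (SD, n = 4 each), which is 65.2% of the normal mean. The log2 fold change was -0.61 (SE 0.06, adjusted p = 0.000491 in limma). With the cerebellar marker level as a covariate it was -0.70 (adjusted p = 0.00942 in limma), and without normal mice 2 and 3 it was -0.65 (adjusted p = 0.00252).

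Gpr17 lies inside Lims2, a gene on the opposite strand, and their exons share 188 bases. The libraries were made with a stranded kit, but whether strand was used in counting was not stated in the methods or labels. Lims2 was at 5.2, 7.4, 5.2 and 4.9 FPKM in normal mice and at 4.1, 4.4, 5.6 and 4.3 in HFD mice (log2 fold change -0.29, adjusted p = 0.147 in limma). Its diets overlapped, and the part of Lims2 reads in the Gpr17 level was not tested. Exons of Pdgfra, Bcas1 and Olig1 also overlap those of other annotated genes that were not analysed here.

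Bcas1 (ENSMUSG00000013523.13, chr2:170346991-170427845, - strand), a protein of newly forming and early myelinating oligodendrocytes, was the most abundant of the 10 genes. Its FPKM was 57.6, 70.6, 66.9 and 42.8 in normal mice and 30.9, 31.0, 39.2 and 30.3 in HFD mice. Normal mouse 4 was far below the other normal mice and HFD mouse 3 above the rest of its diet, yet the diets did not overlap. The means were 59.5 ± 12.4 and 32.9 ± 4.24 (SD, n = 4 each), so the HFD mean was 55.2% of the normal mean. The log2 fold change was -0.84 (SE 0.15, adjusted p = 0.00352 in limma), and with the cerebellar marker level as a covariate it was -0.57 (adjusted p = 0.158). Without normal mice 2 and 3, its highest libraries, it was -0.60 (adjusted p = 0.022 in limma).

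Enpp6 (ENSMUSG00000038173.15, chr8:46986887-47096762, + strand) encodes a choline phosphodiesterase used as a marker of newly formed oligodendrocytes. It was at 4.0, 5.6, 5.8 and 3.0 FPKM in normal mice and at 2.1, 2.1, 2.9 and 1.9 in HFD mice. The order of the mice was close to that of Bcas1, with normal mouse 4 lowest in its diet and HFD mouse 3 highest in its own, and the values of those mice nearly met. The mean fell from 4.60 ± 1.34 to 2.25 ± 0.443 (SD, n = 4 each), 48.9% of normal. The log2 fold change was -0.97 (SE 0.21, adjusted p = 0.00825 in limma), and with the cerebellar marker level as a covariate it was -0.50 (adjusted p = 0.339). Without normal mice 2 and 3 it was -0.62 (adjusted p = 0.0555 in limma).

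The cerebellar level itself differed by diet. With it as a covariate 794 of all 13982 genes were called, the median standard error went from 0.0844 to 0.124, and the log2 fold changes of Bcas1 and Enpp6 were nearer to 0. The part of cerebellar tissue and that of diet in these falls cannot be told apart. Striatal markers were higher in every normal mouse than in any HFD mouse, and their part was not tested, since a covariate that nearly coincides with diet leaves no usable fit.

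**Figure D2:**
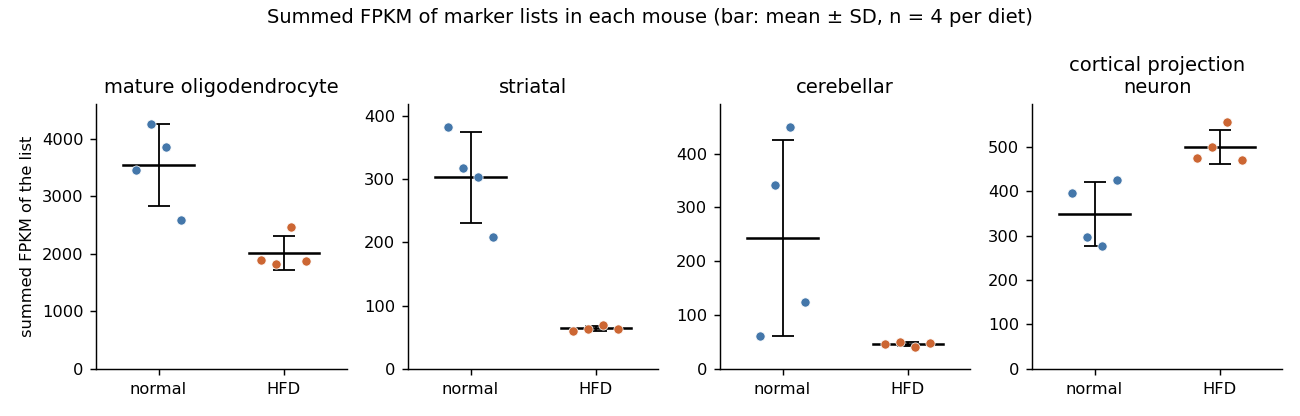
Summed FPKM of the mature oligodendrocyte, striatal, cerebellar and cortical projection neuron markers, with points for the 8 mice by diet and bars for the mean and SD of 4 mice. All 4 sums separate the diets, and within the normal mice the cerebellar sum spans 60.8 to 449, with mice 2 and 3 highest.

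The transcription factors Olig1 and Olig2 lie close together on chromosome 16, with start sites 44315 bases apart, and Olig2 alone passed the test. Olig1 (ENSMUSG00000046160.6, chr16:91269772-91271933, + strand) was at 34.8, 39.8, 34.7 and 31.2 FPKM in normal mice and at 29.6, 30.3, 34.7 and 25.9 in HFD mice. Only HFD mouse 3 reached into the normal range. Olig1 had a log2 fold change of -0.22 (SE 0.10, adjusted p = 0.0988 in limma), and it was called in 1 of 8 fits that each left out a mouse, the one without HFD mouse 3 (-0.29, adjusted p = 0.0397 in limma, against up to 0.234 in the others).

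Olig2 (ENSMUSG00000039830.8, chr16:91225457-91228677, + strand) was at 5.6, 7.2, 5.7 and 5.6 FPKM in normal mice and at 6.8, 7.2, 8.6 and 7.3 in HFD mice. Normal mouse 2 lay within the HFD range, and the other normal mice lay below it. Olig2 rose by a log2 fold change of 0.31 (SE 0.10, adjusted p = 0.0433 in limma), 1.24-fold on the means. The call was close to the threshold: it was lost when normal mouse 1, 3 or 4 or HFD mouse 2, 3 or 4 was left out (adjusted p = 0.0731 to 0.103 in limma), and with the cerebellar covariate (0.44, adjusted p = 0.137). Without normal mice 2 and 3 together it was 0.40 (adjusted p = 0.0279 in limma).

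The ratio of both factors within a mouse was formed after Olig1 was seen to be lower and Olig2 higher on the means. It restates those differences on another scale and is no separate support for them. Olig1 over Olig2 was 5.53 to 6.21 in normal mice and 3.55 to 4.35 in HFD mice. The means were 5.85 ± 0.351 and 4.04 ± 0.35 (SD, n = 4 each), with no overlap. The log2 difference was -0.53 (SE 0.13, adjusted p = 0.00876 in limma over the ratios of 13981 genes to Olig2, 36.6% of which were called). It remained called with each of the 8 mice left out in turn, at -0.57 to -0.47.

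The levels were also set against Pdgfra in the same library. Pdgfra was picked after it was seen not to pass the test, so these ratios restate the differences above on another scale and are no separate support for them. Relative to Pdgfra, 4 of the other 9 genes differed by diet, against 27.5% of all genes. Gpr17 was at 0.942 to 1.11 times the Pdgfra level in normal mice and at 0.625 to 0.692 in HFD mice (log2 difference -0.68, SE 0.08, adjusted p = 0.00148 in limma). For Bcas1 the ratio was 3.32 to 5.35 against 2.08 to 2.95 (log2 difference -0.91, adjusted p = 0.00716 in limma). For Enpp6 it was 0.233 to 0.424 against 0.13 to 0.218 (-1.04, adjusted p = 0.0119 in limma).

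They are the genes whose levels fell, and Cspg4, whose level rose, rose relative to Pdgfra too, from 0.217 to 0.24 in normal mice to 0.267 to 0.293 in HFD mice (log2 difference 0.30, adjusted p = 0.0119 in limma). All of these calls were kept when any single mouse was left out. The ratios of C1ql1 (-0.27), Neu4 (-0.16), Olig1 (-0.30), Olig2 (0.24) and Ptprz1 (-0.09) to Pdgfra did not pass.

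**Figure D3:**
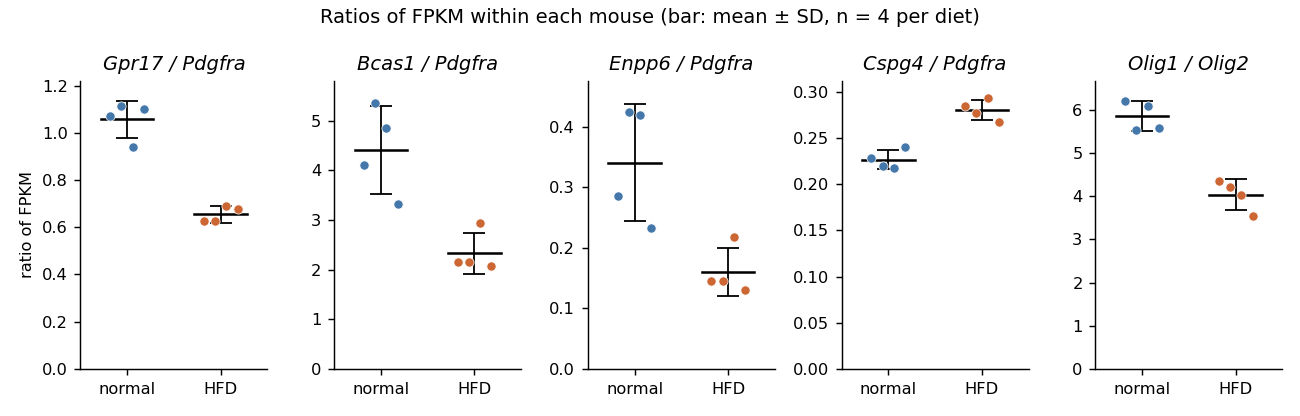
FPKM of Gpr17, Bcas1, Enpp6 and Cspg4 divided by that of Pdgfra in the same mouse, and of Olig1 divided by that of Olig2, with points for the 8 mice by diet and bars for the mean and SD of 4 mice. The diets do not overlap in any of these panels.

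The next step of the lineage is the mature oligodendrocyte, and 19 of 20 of its markers fell, with a median log2 fold change of -0.84. With the cerebellar covariate 1 of the 20 fell (median -0.65), and without normal mice 2 and 3 together 13 fell (median -0.69). Klk6, a protease of these cells, fell most (-1.87, adjusted p = 0.00631 in limma), followed by Ugt8a, an enzyme of myelin galactolipids (-1.04, adjusted p = 0.00172), and Hapln2 did not pass (-0.12, adjusted p = 0.591). Klk6 was at 9.7 and 8.7 FPKM in normal mice 2 and 3 but at 2.8 and 3.3 in normal mice 1 and 4, and at 1.1 to 1.8 in HFD mice. Bcas1, Enpp6 and Gpr17 did not pass a test of their difference from the mean of these markers within a library. Their differences were -0.03 (95% interval -0.46 to 0.41), -0.16 (-0.59 to 0.28) and 0.20 (-0.24 to 0.64). The SE was nearly the same for all of them (0.221, 0.222 and 0.222), so the interval of a gene does not show its own spread. Dropping 1 mouse per fit gave -0.05 to -0.01 for Bcas1, -0.21 to -0.08 for Enpp6 and 0.11 to 0.34 for Gpr17. The other 7 of the 10 genes rose relative to the mature markers, from 0.59 for Olig1 to 1.18 for Cspg4, and C1ql1 (0.61) lost the call without HFD mouse 2 (adjusted p = 0.0786 in limma). As the reference itself fell, 92.4% of all genes were called in this comparison, so the count says nothing particular about the 10 genes.

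Mouse by mouse, Bcas1 and Enpp6 varied as the mature markers did. On the log2 scale relative to the normal mean, the mature markers were at -0.03, 0.29, 0.15 and -0.41 in normal mice and at -0.87, -0.95, -0.53 and -0.89 in HFD mice. Bcas1 was likewise lowest in mouse 4 among normal mice, at -0.45, and highest in mouse 3 among HFD mice, at -0.57. Enpp6 had -0.55 and -0.60 in those mice. Gpr17 had another order, with mouse 1 highest in normal mice (0.08) and mouse 4 highest in HFD mice (-0.52). The coefficient of variation among normal mice was 29.1% for Enpp6 and 20.8% for Bcas1 but 6.19% for Gpr17, and it was 3.8% for Pdgfra.

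**Figure D4:**
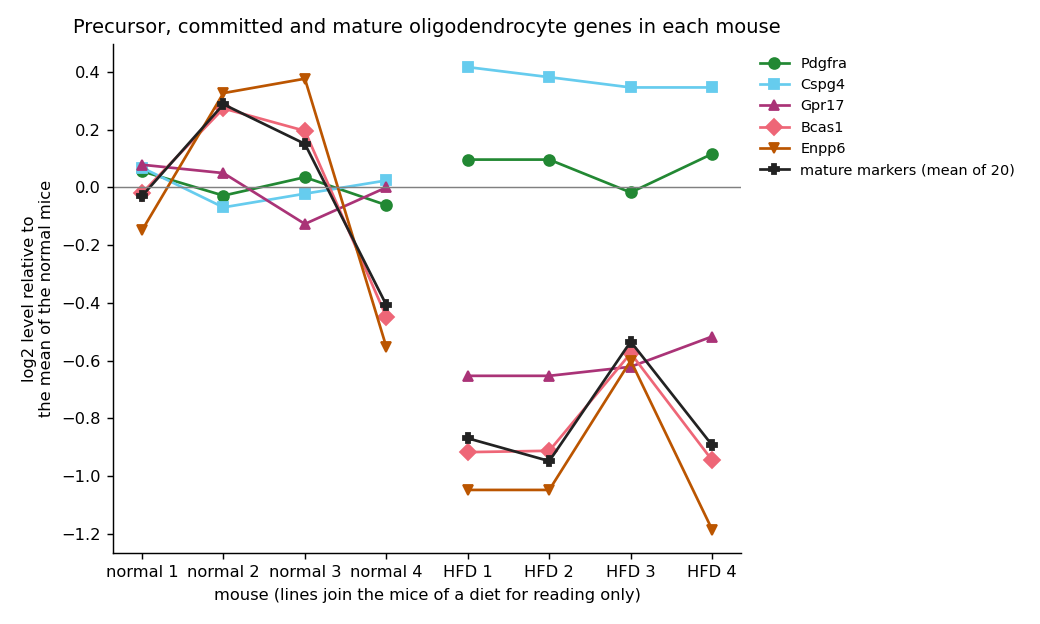
Log2 level relative to the normal mean of Pdgfra, Cspg4, Gpr17, Bcas1 and Enpp6 and of the mean of 20 mature oligodendrocyte markers in each of the 8 mice, where lines join the mice of a diet for reading only. Bcas1 and Enpp6 are low in normal mouse 4 and high for their diet in HFD mouse 3, as the mature markers are, while Gpr17 varies less within each diet.

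Other genes of the same stages moved less uniformly. Of 14 other precursor genes, 4 rose and 5 fell (median -0.05). Pcdh15, a protocadherin of precursors (0.79, adjusted p = 0.000608 in limma), Xylt1, a xylosyltransferase of proteoglycan synthesis (0.71, adjusted p = 0.000793), and Sox6, a transcription factor that holds precursors back from differentiation (0.31, adjusted p = 0.0425), rose most. Emid1 (-0.76, adjusted p = 0.00637), Cacng4 (-0.67, adjusted p = 0.0014) and Lhfpl3 (-0.54, adjusted p = 0.0313) fell most in the limma fit. Under the cerebellar covariate 3 rose and 1 fell, and without normal mice 2 and 3 together 2 rose and 1 fell.

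Of 11 other committed and newly formed oligodendrocyte genes, 6 fell and 5 did not pass (median -0.19). Cnksr3 had 7.3 and 7.7 FPKM in normal mice 2 and 3 but 2.6 and 2.8 in normal mice 1 and 4. The largest falls in limma were in Cnksr3 (-1.58, adjusted p = 0.00793), Tmem163, a zinc transporter (-0.91, adjusted p = 0.00443), and Nkx2-2, a transcription factor that drives differentiation (-0.74, adjusted p = 0.0397). With the cerebellar covariate 1 of the 11 fell (median -0.33), and without normal mice 2 and 3 together 4 did (median -0.28). In those fits 794 of 13982 and 2736 of 13904 genes were called in all. Of 15 other transcription factors of the lineage and partners of Olig proteins, Tcf4 was among those that rose (0.51, adjusted p = 0.00101 in limma), and 3 fell, Nkx2-2, Sox10 (-0.33, adjusted p = 0.0336) and Sox8 (-0.23, adjusted p = 0.0181). Sox10 turns on myelin genes. None of the 3 falls was called with the cerebellar covariate, and 1 gene of the list was lower without normal mice 2 and 3.

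**Figure D5:**
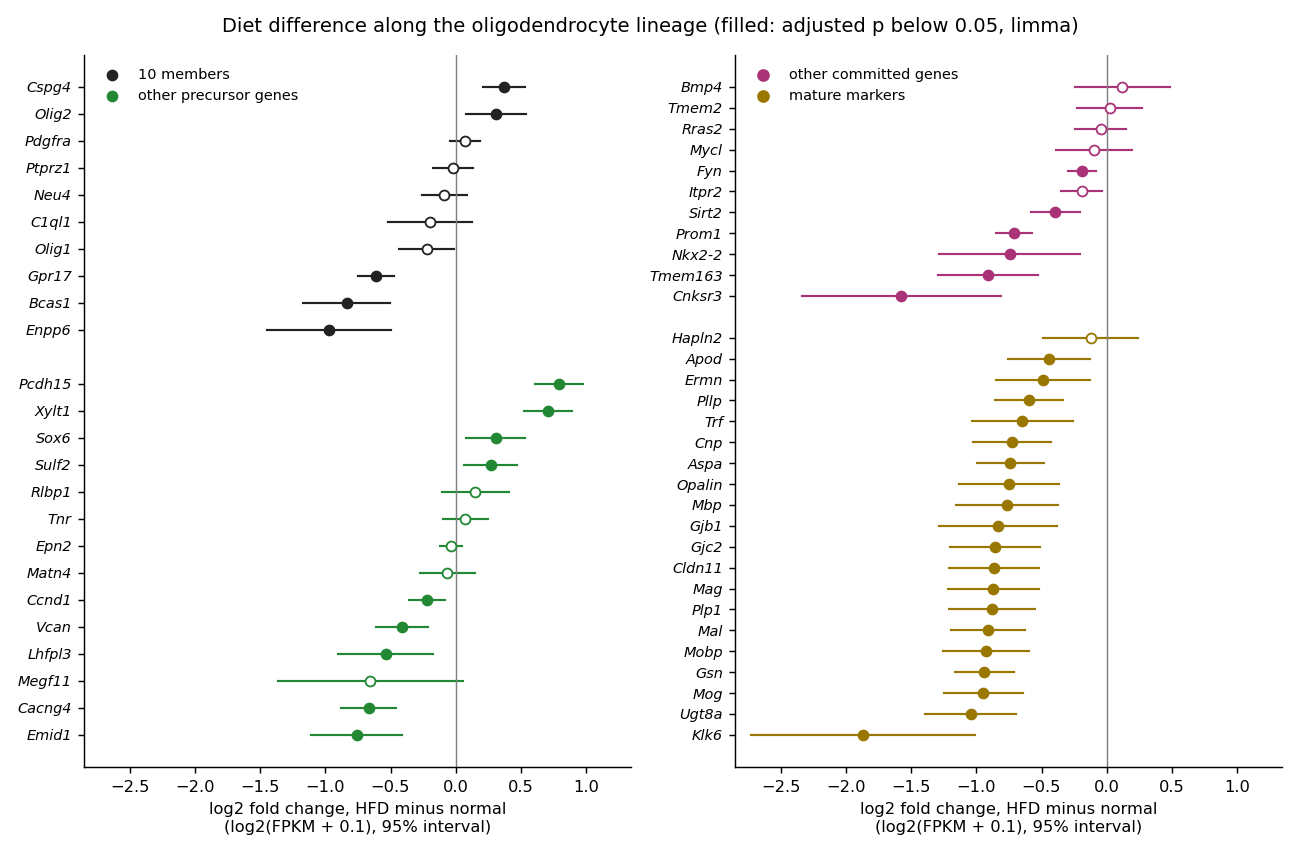
Log2 fold changes (HFD over normal, on log2(FPKM + 0.1)) with 95% intervals of the 10 genes, of 14 other precursor genes, of 11 other committed genes and of 20 mature markers, with filled points for an adjusted p below 0.05 in limma. Gpr17, Bcas1 and Enpp6 lie below 0, as do 19 of the 20 mature markers with filled points, and Cspg4 and Olig2 lie above 0.

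The partners of the surface proteins were looked at in turn. Of the PDGF ligands and the second PDGF receptor, 5 genes in all, none passed at an adjusted or an unadjusted p of 0.05 (0 of 5 each, limma). Pdgfa, the ligand of Pdgfra, was among them, and its adjusted p was 0.58. Of 6 ligands and partners of Ptprz1, 3 fell: the growth factor Mdk (-0.51, adjusted p = 0.0425 in limma), Tnc (-0.77, adjusted p = 0.0315) and Cntn1 (-0.19, adjusted p = 0.00909). Mdk was at 16.7 and 18.3 FPKM and Tnc at 3.3 and 3.0 in normal mice 2 and 3, against 10.5 and 11.2 and 1.6 and 1.8 in normal mice 1 and 4, and both overlapped between the diets. With the cerebellar covariate 1 of the 6 was called lower, and with single mice left out 1 to 3 were. Ptn, the other growth factor that binds Ptprz1, had -0.20 (adjusted p = 0.0512 in limma). Among 3 binding partners of Cspg4, Mpdz rose (0.13, adjusted p = 0.0499 in limma) and Sdcbp fell (-0.25, adjusted p = 0.00368). No gene of the 3 was called higher with the cerebellar covariate, nor in any fit that left out a mouse except the one without normal mouse 4.

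Of 5 C1q-like genes and their receptors tested, C1ql3 rose (0.31, adjusted p = 0.0404 in limma) and the glutamate receptor subunit Grik2 fell (-0.30, adjusted p = 0.0207). Neither was called with the cerebellar covariate, and a higher gene was called in the fits without normal mouse 1 or normal mouse 4 but in no other fit that left out a mouse. Among the other sialidases, Neu2 fell (-0.70, adjusted p = 0.00482 in limma) while Neu1 and Neu3 did not pass, and Neu4 itself did not. Of 9 Enpp and choline genes, 4 fell and 1 rose: Enpp2, the lysophospholipase D that makes lysophosphatidic acid (-1.01, adjusted p = 0.0298 in limma), the choline transporter Slc44a1 (-0.37, adjusted p = 0.0106) and Pcyt1a (-0.20, adjusted p = 0.021) fell most, and the choline kinase Chkb rose (0.24, adjusted p = 0.0127). High fat diet fed mouse 4 had 204.9 FPKM of Enpp2, where the other 3 had 75.9 to 88.6. None of the 9 was called with the cerebellar covariate, and the 4 falls became 1 without normal mouse 2 or HFD mouse 2 and 6 without normal mouse 4. Without normal mice 2 and 3 together 0 of the 9 fell and 1 rose.

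Across all 8 mice the levels ordered as Bcas1 (46.2 FPKM), Olig1 (32.6), Ptprz1 (29.6), Pdgfra (13.8), Gpr17 (11.8), Olig2 (6.75), Cspg4 (3.51), Enpp6 (3.42), C1ql1 (3.36) and Neu4 (3.17). Bcas1 exceeded Olig1 in 8 of 8 mice, although their ranges overlapped, and Olig1 exceeded Ptprz1 in 4 of 4 normal and 2 of 4 HFD mice. Where a gene changed, the order differed by diet: Gpr17 exceeded Pdgfra in 3 of 4 normal mice and in 0 of 4 HFD mice, and Enpp6 exceeded Cspg4 in 3 of 4 normal mice and in 0 of 4 HFD mice. Over all mice the ranges of Cspg4, Enpp6, C1ql1 and Neu4 overlapped.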

How the data were processed

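RNA from 8 mouse cortexes was sequenced, 1 library each. The authors checked and trimmed reads (FastQC, Trimmomatic), aligned them with STAR to mm10 (GRCm38.p6) and deposited FPKM from Cuffnorm on GENCODE M17, rounded to 0.1; tool versions: not given in the sources used here. FPKM keep no read totals, so the depth of each library is unknown and counting intervals cannot be given. Sums of FPKM per mouse were 562431 to 639142. Salmon and edgeR values of the study were not used here.

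From the deposited FPKM, log2(FPKM + 0.1) was fitted with limma 3.58.1 (variance trend) in R 4.3.3 over 13982 of 13996 genes (mean FPKM of at least 1, no 0), with Benjamini-Hochberg adjustment. Fold changes are on that scale, which understates low genes. The code was tested on simulated data. Ratios were fitted as log2 differences over all genes without the trend. Coordinates are from GENCODE M21 on GRCm38. Tables used Python 3.11.15, numpy 2.4.6 and pandas 2.3.3, figures matplotlib 3.10.9. All members were named; in lists of 8 or fewer genes any gene could be named, in longer related lists the 3 highest and 3 lowest called, in marker lists the 2 highest and 2 lowest. Hapln2, Lims2 and the single mouse high in Enpp2 were singled out after their values were seen. The members and lists were chosen with earlier results of these data known. Alternatives were other constants, filters and scalings, a replicate block, cerebellar and striatal covariates, and each mouse left out; the ratios, and leaving out normal mice 2 and 3 together, were added after seeing the data. The result of 1 gene of the transcription factor list is not reported here.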

Additional observations from a re-analysis of the deposited data

Results flagged for a closer look

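Each gene's 4 values per diet were checked for a single mouse far from the rest with Dixon's ratio, in 20 tests, and chance alone marks about 1 in 20. HFD mouse 3 was far below the rest of its diet for Pdgfra, at 13.3 FPKM (gap over range 0.846), and far above it for Bcas1, at 39.2 FPKM (0.921). Normal mouse 2 was far above the other normal mice for Olig2, at 7.2 FPKM (0.938).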

How the results depend on the processing

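Of 186 refits of single genes, 160 kept direction and side of the threshold, 16 lost the call, 1 gained it and 9 changed direction. The count of lower genes (3) was 1 with the cerebellar covariate, 0 with the striatal covariate, and 3 to 4 with a mouse left out. The count of higher genes (2) was 1 at a mean FPKM of at least 5 (which leaves Cspg4 untested), 1 without the variance trend, 0 with the cerebellar covariate, 0 with the striatal covariate, 0 when a difference over 1.5-fold was required, and 1 to 2 with a mouse left out. The changes of direction were in C1ql1 (0.15) and Ptprz1 (0.15) with the cerebellar covariate, Ptprz1 without normal mouse 3 (0.02) or HFD mouse 3 (0.031; range -0.060 to 0.031 with each mouse left out) or both normal mice 2 and 3 (0.062), and Neu4 (0.37), Bcas1 (0.44), Enpp6 (0.26) and Olig1 (0.26) with the striatal covariate; the cause was not tested. The striatal covariate nearly coincides with diet (variance inflation 27.8, 0 of 13982 genes called and 0 members at an unadjusted p below 0.05 in limma), so that fit is void. Without normal mice 2 and 3 together, 2736 of 13904 genes were called, and of the calls Enpp6 was lost. Gpr17, Bcas1, Enpp6 and Cspg4 were called with every mouse left out, at -0.65 to -0.58, -0.99 to -0.75, -1.15 to -0.84 and 0.35 to 0.39.

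With the replicate number as a block, 1 gene was higher: Olig2 lost the call (adjusted p = 0.0716 in limma) and the other calls were kept; 3390 genes were called in all. Same-numbered mice did not deviate together (r from -0.11 to -0.03) and 0 of 8 mice correlated best with their own number. These values gave no sign that the numbers pair mice, but they cannot exclude a pairing that left no such trace. Depth is unknown, and at levels near 3 FPKM the rounding to 0.1 limits Neu4, C1ql1 and Cspg4.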

Other observations

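Precursors are the main dividing cells of the adult cortex. Of 12 cell cycle genes looked for, 5 had a row in the table, and Mki67 and Top2a were not among them. Mcm2, a replication helicase subunit, fell (log2 fold change -0.44, adjusted p = 0.021 in limma), and so did Pcna (-0.16, adjusted p = 0.0337). Neither was called with the replicate block, with the cerebellar covariate, or without normal mouse 2, normal mouse 3 or HFD mouse 2.

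The mean of the 10 genes, with the diet means removed, was -0.03, 0.13, 0.06 and -0.16 in normal mice and -0.03, 0.01, 0.08 and -0.06 in HFD mice on the log2 scale. The 10 genes did not vary alike. In HFD mouse 3, Enpp6 (0.37), Bcas1 (0.26), Olig1 (0.21) and Olig2 (0.21) were highest, and Ptprz1 (-0.15) and Pdgfra (-0.09) lowest. Enpp6 ranged furthest, from -0.55 to 0.38 in normal mice. The genes that followed the mean of the 10 most closely over these 8 mice were Kif1c (Pearson r 0.99), Ece1 (0.98), Tmem229a (0.98), Slain1 (0.98) and Elmo1 (0.98). These values describe the same 8 libraries and were picked as the highest among genes whose mean FPKM reached 5.

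Among other cell types, 0 of 9 microglia markers passed in limma (1 at an unadjusted p below 0.05), 2 of 7 interneuron markers rose and 4 fell, and 3 of 8 thalamic markers fell. With the cerebellar covariate 0 of the 7 interneuron and 0 of the 8 thalamic markers were called. Without normal mice 2 and 3 together 2 interneuron markers rose and 2 fell, and 1 thalamic marker fell.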
